A study of Mus musculus with 6 samples.

Results

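The sirtuins Sirt1 to Sirt7 are the NAD-dependent deacylases of the mouse, and they are described here together with Nampt, which recycles NAD, and Parp1, which consumes it. Their probes are all those whose gene name in the scanner files equals one of these symbols. They amount to 9 of the 37074 gene names and 20 of the 56605 probes on the array, and all 20 were among the 34443 kept probes. A probe was kept if the 3 arrays of either group all read it well above background. Hypothalamic RNA of male C57BL/6J mice with diet-induced obesity (DIO) was hybridized to 6 Agilent arrays in 1 colour, with 3 arrays labelled vehicle (0 mg per kg) and 3 labelled GSK-J4 (30 mg per kg, injected daily), each from a different mouse according to the design text. Both groups had been fed a high-fat diet (60 kcal% fat) for 16 weeks from the age of 6 weeks, and the tissue was taken at ZT 6 h, counted from lights on. The same text places it 4 d after exposure, whereas the paper describes a longer course of injections. GSK-J4 inhibits the Kdm6 demethylases, which remove methyl groups from lysine 27 of histone H3. The comparison asks how the inhibitor changed hypothalamic transcripts in obese mice.

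Sirtuins remove acetyl and longer acyl groups from lysines and split NAD to nicotinamide at each turn, and Nampt catalyses the rate-limiting step that returns nicotinamide to the NAD pool. Sirt1, Sirt6 and Sirt7 are mainly nuclear, Sirt2 is mainly cytosolic, and Sirt3, Sirt4 and Sirt5 reside in mitochondria. In the hypothalamus, Sirt1 is known for its part in feeding circuits and in the circadian clock, where Nampt transcription is itself under clock control.

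Slide 1, scanned in 1 session, holds the 3 vehicle arrays and slide 2 the 3 GSK-J4 arrays. Slide and drug therefore cannot be told apart in the values that follow. The 75th percentile of the signal before normalization was 802, 916 and 787 on vehicle replicates 1 to 3, compared with 461, 453 and 406 on the GSK-J4 replicates. Between 62.8% and 63.6% of the probes were well above background on the vehicle arrays, and between 57.7% and 58.7% on the GSK-J4 arrays. The values below are log2 signals, quantile normalized between the 6 arrays. Differences are GSK-J4 minus vehicle, and adjusted p-values come from limma over all kept probes unless stated otherwise. The number of arrays limits the precision, and an exact permutation test of 3 arrays against 3 (two-sided) cannot give a p below 0.1.

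Few of the 20 probes passed a threshold. Taking an adjusted p of at most 0.05, limma called 1 of them higher, a Sirt4 probe, where 8.38% of all kept probes were called higher, and 0 lower, where 8.4% were. By the thresholds the methods give, a 1.5-fold change and an unadjusted p of 0.05 (here that of limma), 0 of 20 were higher (4.8% of all probes) and 0 were lower (7.85%). An unadjusted p under 0.05 was found for 8 of the 20 and for 36.5% of all kept probes. All GSK-J4 arrays lay above all vehicle arrays for 4 of the 20 probes, compared with 24.5% of all probes, and below them for 5, compared with 21.1%. These shares are near or under those of the whole array. Differences ranged from −0.47 to 0.42 with a median of −0.05, compared with 0.02 over all kept probes. Of the 20, 13 were negative, compared with 16283 of all 34443 kept probes. The 95% interval lay inside a 1.5-fold change in either direction for 12 of the 20 probes. With 1 probe per gene, the brightest over the 6 arrays, limma called 0 of the 9 genes higher (9% of 22117 genes) and 1 lower, Sirt1 (7.77%).

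**Figure D1:**
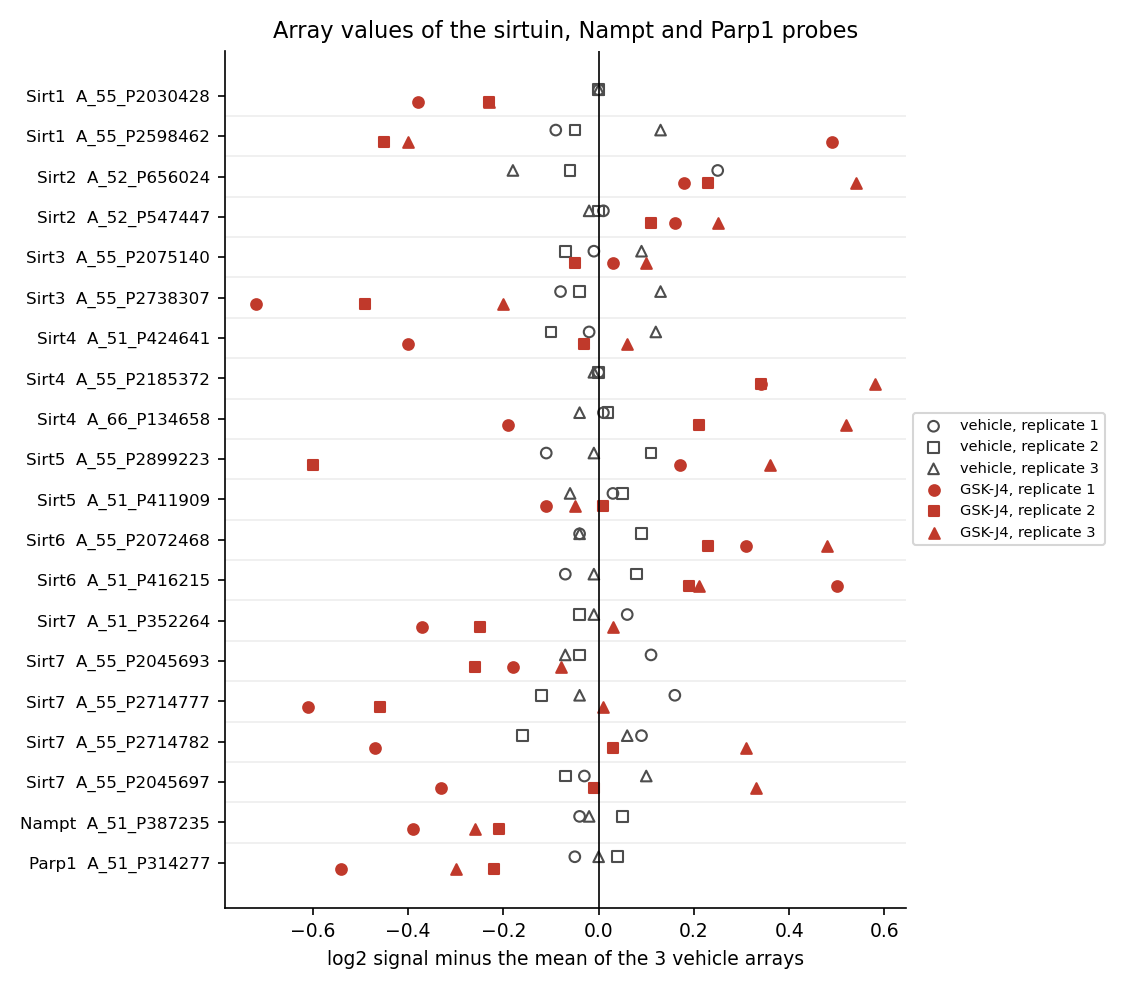
Log2 signal on each array, as the distance from the mean of the 3 vehicle arrays, for the 20 probes of the 9 genes; open grey symbols are vehicle and filled red symbols GSK-J4, and the shape gives the replicate. The groups are apart for 9 probes, GSK-J4 replicate 3 is the highest GSK-J4 array for 14 of the 20, and symbols of equal value overlie each other, as for the first Sirt1 probe.

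Among the nuclear sirtuins, Sirt1 deacetylates histones and transcription factors such as p53 and the PGC-1α coactivator. Its brighter probe A_55_P2030428, for transcript NM_019812 at mm9 chr10:62781827-62781886 on the minus strand, read 9.97 on each of the 3 vehicle arrays and 9.59, 9.74 and 9.74 on the GSK-J4 arrays. The vehicle arrays were equal to 2 decimals, and all 3 GSK-J4 arrays lay below them. The difference was −0.28 with a 95% interval from −0.47 to −0.10, a signal 1.22-fold higher in vehicle. Its adjusted p from limma was 0.054 over all probes and 0.048 with 1 probe per gene. Over all probes it was called with probes well above background on all 6 arrays (adjusted p 0.045) and with the methods' t-test (0.05), in a range up to 0.44. With 1 probe per gene the adjusted p ranged from 0.041 to 0.42 over the alternatives, and leaving out any 1 of the 6 arrays ended the call, with adjusted p between 0.07 and 0.14. A correction for the GC content of the probes also ended it, with a difference of −0.11 and an adjusted p of 0.33.

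The second Sirt1 probe, A_55_P2598462, detects the same transcript at chr10:62784955-62785014. It was well above background on 3 vehicle arrays and on 1 GSK-J4 array only, and its values were 4.29, 4.33 and 4.51 in vehicle and 4.87, 3.93 and 3.98 in GSK-J4. The GSK-J4 arrays lay on both sides of the vehicle arrays (difference −0.12, 95% interval from −0.77 to 0.54), so this probe bears little on the direction of Sirt1. The first 30 bases of both probes are shown because the groups were apart on one and overlapped on the other, with G and C in capitals here and in the probes below.
A_55_P2030428: GGCatatGttttGtaGaCCGtttaatGaCt
A_55_P2598462: aaataGGGaaCCtttGCCtCatCtaCattt

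Sirt6 acts on chromatin, where it deacetylates histone H3 and restrains glycolytic genes. Its probe A_55_P2072468 (NM_181586, chr10:81084531-81084589, minus strand) read 9.53, 9.66 and 9.53 in vehicle and 9.88, 9.80 and 10.05 in GSK-J4. Every GSK-J4 array lay above every vehicle array. The difference of 0.34 (95% interval from 0.11 to 0.57) had an adjusted p of 0.059 in limma and passed neither threshold. It was called under 3 alternatives, which were 75th percentile scaling (adjusted p 0.039), normexp background correction (0.035) and probes well above background on all 6 arrays (0.049), within a range up to 0.21. A dimmer Sirt6 probe, A_51_P416215, gave 0.30, also without overlap. It was well above background on 1 GSK-J4 array only, so this probe bears little on the direction of Sirt6. The interval that the files list for that probe covers 15 bases, fewer than the probe itself, so its exact position is uncertain. After the GC correction the differences of the 2 probes were 0.27 and 0.03. The first 30 bases of the brighter probe are shown as those of the nuclear sirtuin whose GSK-J4 arrays were higher.
A_55_P2072468: GCCCCaGGCtCCCaGaaGCtCCCaatGCaa

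Sirt7 is the nucleolar sirtuin and is linked to ribosomal RNA transcription. It has 5 probes on chromosome 11, whose outermost starts lie 6073 bases apart, and 3 of them are listed for separate Ensembl transcripts. Their differences ranged from −0.35 to 0.00, with adjusted p from 0.21 to 0.99 in limma. The brightest, A_51_P352264, read 12.80, 12.70 and 12.73 in vehicle and 12.37, 12.49 and 12.77 in GSK-J4. GSK-J4 replicate 3 lay among the vehicle arrays there. A_55_P2714777 gave −0.35 (adjusted p 0.22), with 6.54, 6.26 and 6.34 in vehicle and 5.77, 5.92 and 6.39 in GSK-J4, and A_55_P2714782 and A_55_P2045697 gave −0.04 and 0.00. The difference of A_55_P2714777 was −0.53 without GSK-J4 replicate 3 (adjusted p 0.052), −0.22 without replicate 1 and −0.13 with normexp. The groups were apart only for A_55_P2045693 (difference −0.17, 95% interval from −0.39 to 0.04). The median of all kept probes with the GC content of A_55_P2045693, 55%, was 0.24, and its own difference after the GC correction was −0.44. Among the alternatives, that correction is the only one under which this probe was called, with an adjusted p of 0.035 within a range up to 0.41.

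Sirt2, the cytosolic sirtuin, deacetylates tubulin and is abundant in oligodendrocytes. Its probe A_52_P547447 (NM_022432, chr7:29573375-29573434, plus strand) read 12.49, 12.48 and 12.46 in vehicle and 12.64, 12.59 and 12.73 in GSK-J4. The groups did not overlap, and the difference was small, at 0.18 with an adjusted p of 0.14 in limma. The other probe, A_52_P656024, is listed over 1626 bases of the genome and therefore spans an intron. It gave 0.31 with a 95% interval from −0.06 to 0.69, and its groups overlapped because vehicle replicate 1 (10.63) lay above GSK-J4 replicates 1 and 2 (10.56 and 10.61). Both differences were positive under each alternative tried, and each probe was called under 1 of them, A_52_P547447 with 75th percentile scaling (adjusted p 0.022, range up to 0.46) and A_52_P656024 with normexp (adjusted p 0.035, range up to 0.88). After the GC correction they shrank to 0.1 for A_52_P547447 (adjusted p 0.35 in limma) and 0.05 for A_52_P656024 (0.86). The 6 oligodendrocyte markers, measured beside this gene, had a median difference of 0.16 with 0 called. After the GC correction their median was 0.01, with 3 of the 6 positive. Their summed signal was 133000, 113000 and 127000 on the vehicle arrays and 116000, 118000 and 114000 on the GSK-J4 arrays. The part of these markers in the values of Sirt2 was not tested. In bulk tissue, a change in the number of cells of a type and a change in RNA per cell cannot be told apart.

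Among the mitochondrial sirtuins, Sirt3 is the main protein deacetylase of the organelle. Its brightest probe, A_55_P2075140 (NM_022433, chr7:148049581-148049640, minus strand), read 13.26, 13.20 and 13.36 in vehicle and 13.30, 13.22 and 13.37 in GSK-J4. The groups overlapped on it almost completely, and the difference was 0.02 with a 95% interval from −0.18 to 0.23. It was 0.28 after 75th percentile scaling (adjusted p 0.068, range up to 0.94) and 0.19 after the GC correction, and was not called under any alternative. The other probe, A_55_P2738307, is listed for the cDNA AK165407 under the same gene name, at chr7:148067011-148067070 and 17430 bases away. It read 8.82, 8.86 and 9.03 in vehicle and 8.18, 8.41 and 8.70 in GSK-J4, and all 3 GSK-J4 arrays were lower. Its difference, −0.47 (95% interval from −0.84 to −0.11), was the most negative of the 20 and had an adjusted p of 0.079 in limma. Without GSK-J4 replicate 3 it was −0.61 and was called (adjusted p 0.042), as it was with normexp (0.035), within a range up to 0.23 over the alternatives. It was smaller and not called after the GC correction (−0.3, adjusted p 0.23) and without GSK-J4 replicate 1 (−0.35, adjusted p 0.15). The difference between the 2 probes moved by 0.50 from vehicle to GSK-J4, without overlap between the groups (exact permutation test, p = 0.1, the smallest this design allows). The first 30 bases are shown because the probes share a gene name and a GC content of 35% but not their values.
A_55_P2075140: GCatGttGatCGGtaaaGtGGCatCtttaa
A_55_P2738307: GtCtCataGaGtCCtGaGaGtGatCaataa

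Sirt4 is a mitochondrial sirtuin known to restrain glutamate dehydrogenase, and it carries the only probe called over all probes. A_55_P2185372 (NM_001167691, chr5:115929657-115929716, minus strand) read 6.71, 6.71 and 6.70 in vehicle and 7.05, 7.05 and 7.29 in GSK-J4. The vehicle arrays were almost equal, and each GSK-J4 array was higher. The difference was 0.42 (95% interval from 0.20 to 0.65), a 1.34-fold higher signal with an adjusted p of 0.033 in limma. Among the 2617 kept probes of the same GC content, 55%, the median difference was 0.24 and 22.5% were called higher. After the GC correction the difference was 0.16 with an adjusted p of 0.27, within a range from 0.027 to 0.34 over the alternatives. Leaving out GSK-J4 replicate 1 or 2 or any vehicle array ended the call, with adjusted p from 0.052 to 0.11 at differences of 0.42 to 0.46, and leaving out GSK-J4 replicate 3 gave 0.046. The call was also lost with 75th percentile scaling (difference 0.29, adjusted p 0.077), with the methods' t-test (0.053) and, narrowly, without a filter on dim probes.

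The other Sirt4 probes were not called. A_66_P134658, at chr5:115932681-115932740, read 5.72, 5.73 and 5.67 in vehicle and 5.52, 5.92 and 6.23 in GSK-J4, whose arrays lay on both sides of the vehicle values (difference 0.18, 95% interval from −0.27 to 0.63). Its difference was 0.01 without GSK-J4 replicate 3, 0.36 without replicate 1 and −0.1 after the GC correction. A_51_P424641, the brightest, at chr5:115928163-115928222, read 9.72, 9.64 and 9.86 in vehicle and 9.34, 9.71 and 9.80 in GSK-J4, with a difference of −0.13. Without GSK-J4 replicate 1 that difference was 0.01. The difference between A_51_P424641 and the called probe moved by −0.55, without overlap (exact permutation test, p = 0.1). The first 30 bases of the 3 probes are shown because they lie in 1 gene and gave different values. Over all 60 bases A_51_P424641 has 27 G or C, A_55_P2185372 has 33 and A_66_P134658 has 35.
A_51_P424641: CaGaaGtCaGtaaaCCaCaaCtGtCtatGa
A_55_P2185372: CtGGattCCCGCtGtGGaGaGttGCtGCCt
A_66_P134658: CtGGGaGaGaCtGGGGaaGCtGCaCtGGtt

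Sirt5 removes succinyl and related acyl groups from mitochondrial proteins. A_51_P411909 (NM_178848, chr13:43490351-43490410, plus strand) read 9.90, 9.92 and 9.81 in vehicle and 9.76, 9.88 and 9.82 in GSK-J4. The difference of −0.05 had a 95% interval from −0.24 to 0.13, which leaves out a change of 1.5-fold. The other Sirt5 probe, A_55_P2899223, was not well above background on any GSK-J4 array, and no fold is given for it.

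Nampt, the salvage enzyme, has 1 probe, A_51_P387235 (NM_021524, chr12:33535475-33535534, plus strand). It read 10.44, 10.53 and 10.46 in vehicle and 10.09, 10.27 and 10.22 in GSK-J4. Each GSK-J4 array was lower, and the difference was −0.28 (95% interval from −0.48 to −0.09) with an adjusted p of 0.062 in limma. It was therefore not called, and it kept its sign under each alternative tried. With normexp it was called, with an adjusted p of 0.041 in a range up to 0.18. Parp1, which builds poly(ADP-ribose) from NAD at DNA breaks, also has 1 probe, A_51_P314277 (NM_007415, chr1:182530341-182530639, plus strand), whose interval of 299 bases spans an intron. It read 10.88, 10.97 and 10.93 in vehicle and 10.39, 10.71 and 10.63 in GSK-J4. The groups were again apart, with a difference of −0.35 (95% interval from −0.61 to −0.10) and an adjusted p of 0.068 in limma. Both probes have a GC content of 40%, at which the median over 2270 kept probes was −0.04, and after the GC correction the differences were −0.25 for Nampt and −0.32 for Parp1. The first 30 bases of both probes are shown because these genes make and use NAD and their arrays were lower together.
A_51_P387235: aCtaaCatGttCattGtaCaGatGtGtGGG
A_51_P314277: aGtaCattGtCtaCGaCattGCtCaGGtGa

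**Figure D2:**
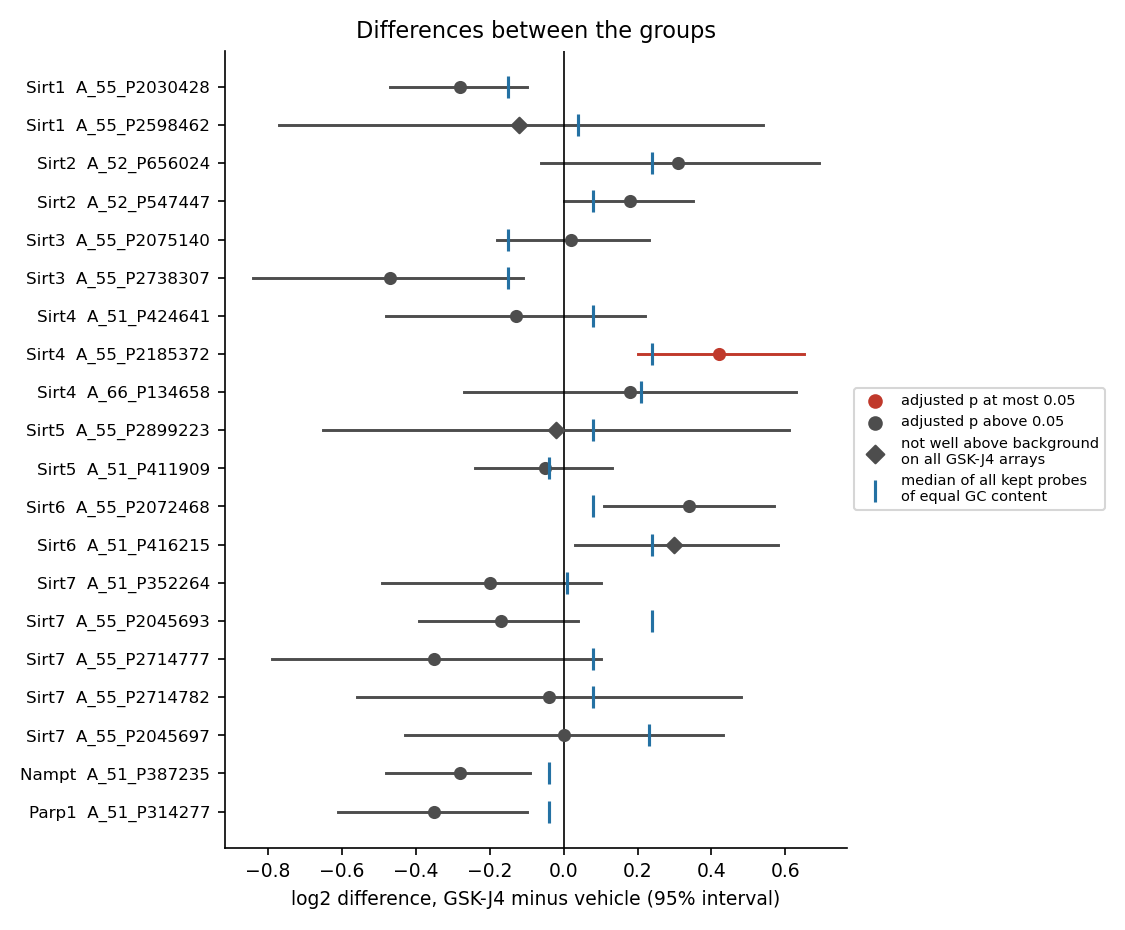
Difference in log2 signal between GSK-J4 and vehicle for each probe (point) with its 95% interval from limma (line); diamonds mark probes not well above background on all GSK-J4 arrays, red marks the probe called over all kept probes, and the blue tick is the median of all kept probes of equal GC content. The interval leaves out that median for 4 probes, those of Nampt and Parp1, A_55_P2072468 of Sirt6 and A_55_P2045693 of Sirt7. With the GC correction, limma gave an unadjusted p under 0.05 for 4 of the 20 probes and 11004 of 34443 kept probes. The share among the 20 is thus not above that of all kept probes.

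Base composition moved with the differences over the whole array. The median difference was −0.29 for kept probes with a GC content under 35% and 0.25 for those of 55% or more, and 2.34% and 23.5% of them were called higher. Across the 20 probes the differences and the GC content had a Pearson r of 0.61 and a Spearman rho of 0.62, given as a description because the probes share arrays and several share a gene. With the trend on GC content removed within each array, 11 of the 20 differences were nearer to 0. The share of base composition in the values of single genes was not tested beyond this correction.

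**Figure D3:**
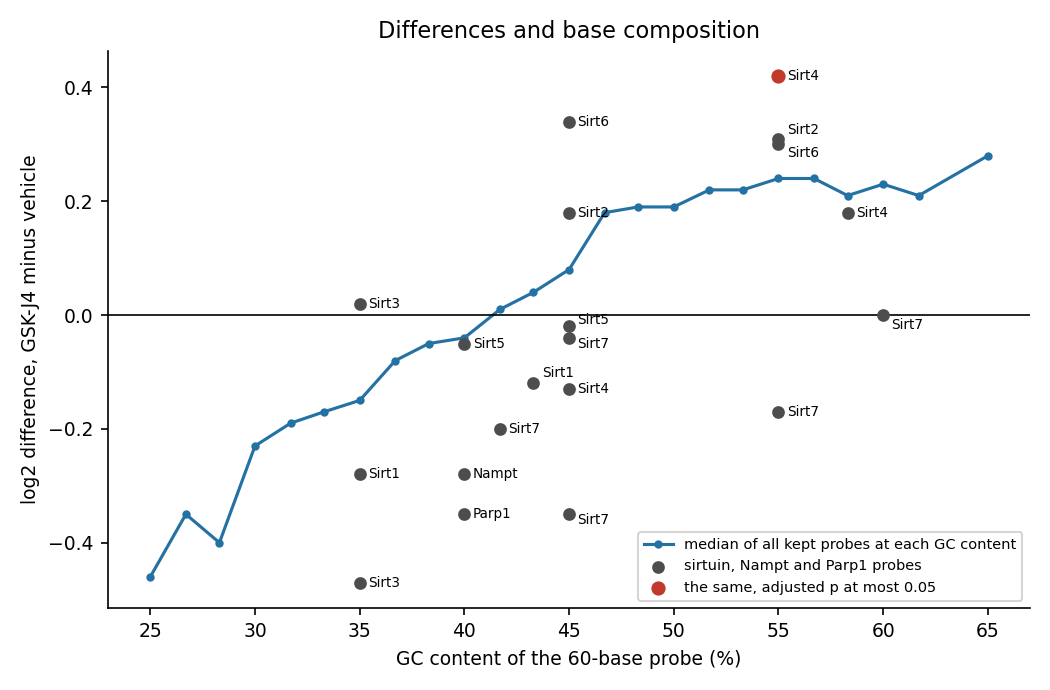
Difference in log2 signal against the GC content of the 60-base probe; the blue line joins the median of all kept probes at each GC content with at least 50 probes, and the points are the 20 probes, with the called Sirt4 probe in red. The line runs from below 0 at low to above 0 at high GC content, and the probes of Nampt and Parp1 lie below it while the brighter Sirt6 probe lies above it.

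Probes of the same gene were also set against each other. Of the 18 pairs of probes within a gene, 6 had a difference between the 2 probes that did not overlap between the groups, namely the pair of Sirt3, all 3 pairs of Sirt4 and 2 pairs of Sirt7. Over the whole array the same held for 41.2% of the 18914 pairs of kept probes under 1 gene name, so the count for these genes is not above that share. The GSK-J4 arrays also differed among themselves. Replicate 1 was the lowest of the 3 for 12 of the 20 probes and replicate 3 for 0 of them, whereas over all kept probes the shares were 39.4% and 28.1%. Replicate 3 was the highest for 14 of the 20, and for 41.4% of all kept probes.

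The promoters of the members were read from the RefSeq table (GRCm38.p6, 250 bases before to 50 after each gene start), which holds a window for all 9 genes. They were searched for the letters CACGTG, an E-box as bound by circadian and other transcription factors, which reads the same on both strands. Of the 27025 genes in the table, 8.09% hold it in a window. Among the 9 members it occurs in Sirt1 with 2 copies and in Parp1 with 1, and the other 7 genes have 0. The copies are shown with 12 bases on each side and the E-box in capitals, because the brighter Sirt1 probe and the Parp1 probe are among those whose GSK-J4 arrays lay below vehicle. A match describes the letters only. The lower values of Nampt, Sirt3 A_55_P2738307 and Sirt7 A_55_P2045693 go with 0 copies in the windows of these genes.
Sirt1 at chr10:63339133-63339162, minus strand: gcggcgcccggcCACGTGacccggcgtgtt
Sirt1 at chr10:63339061-63339090, minus strand: ggaggggcgggtCACGTGacggggtttaaa
Parp1 at chr1:180568830-180568859, plus strand: acctcccaaggaCACGTGctgaagccccgc

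The other genes of the pathway were counted with 1 probe per gene, where the median over all 22117 genes was 0.04. Of all these genes 9% were higher and 7.77% lower by the adjusted p, and 4.84% and 6.39% by the fold and p of the methods. Of 19 genes of NAD biosynthesis and transport 15 were kept. Limma called 0 of them at an adjusted p of 0.05, and the median was 0.09. At fold and p 2 were higher, the quinolinate phosphoribosyltransferase Qprt (0.64, adjusted p 0.087) and the formylkynurenine hydrolase Afmid (0.81, adjusted p 0.063). After the GC correction their differences were 0.37 and 0.54, both under a 1.5-fold change. The nicotinamide riboside kinase Nmrk1 was lower at fold and p (−0.59, adjusted p 0.10), and its corrected difference was −0.66. Among the Nmnat enzymes, which complete NAD synthesis downstream of Nampt and passed neither threshold, the differences were 0.45 for Nmnat1, 0.03 for Nmnat2 and −0.13 for Nmnat3.

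Of 26 genes of NAD consumption and modification 25 were kept, with a median of −0.08. Past an adjusted p of 0.05 there was 1 gene in the higher direction and 0 in the lower. It was the ADP-ribose hydrolase Macrod1 (0.33, adjusted p 0.037), whose difference after the GC correction was 0.07 and no longer called (adjusted p 0.56, with 0.012 to 0.61 over the alternatives). Nnmt, which methylates nicotinamide and so withdraws it from salvage, was the only gene higher at fold and p, with values of 7.63, 7.80 and 8.18 in vehicle and 9.16, 9.24 and 8.20 in GSK-J4. Its difference was 1.0 with an adjusted p of 0.079 in limma, and GSK-J4 replicate 3 lay only just above vehicle replicate 3. After the GC correction the difference of Nnmt was 0.93. Leaving out GSK-J4 replicate 3 was the only alternative under which Nnmt was called (difference 1.34, adjusted p 0.031 in limma). Parp2, a close relative of Parp1, differed by −0.37 (adjusted p 0.061), Parp3 by 0.07 and Parp4 by −0.18, and none of the 3 passed a threshold.

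Of 26 regulators and textbook substrates of the sirtuins 25 were kept, with a median of −0.02. Limma called 2 of the 25 higher and 1 lower by the adjusted p, which is not above the 9% and 7.77% of all genes. Trp53, which encodes the Sirt1 substrate p53, rose by 0.81 (adjusted p 0.021), from 7.39, 7.80 and 7.71 in vehicle to 8.37, 8.56 and 8.38 in GSK-J4. Ccar2, an inhibitor of Sirt1, rose by 0.30 (adjusted p 0.043), and the clock gene Per2 fell by 0.33 (adjusted p 0.038). After the GC correction the differences were 0.57 for Trp53, 0.47 for Ccar2 and −0.16 for Per2, and of the 3 only Ccar2 was still called (adjusted p 0.025), with 0.053 for Trp53 and 0.23 for Per2. Over the alternatives the adjusted p ranged from 0.015 to 0.10 for Trp53, from 0.017 to 0.13 for Ccar2 and from 0.032 to 0.30 for Per2. Nfkb1 was lower at fold and p (−0.65, adjusted p 0.053), and Trp53 was the only gene higher by that rule. After the GC correction Nfkb1 differed by −0.48, and both genes were then under a 1.5-fold change. The differences were 0.11 for Rps19bp1, −0.48 for Ppargc1a and −0.02 for Ppargc1b, none past a threshold. With any 1 vehicle array left out, 0 genes of the 3 lists were called, compared with 4 on all arrays, and of all kept probes 1 to 2 were then called higher and 4 to 12 lower. Without GSK-J4 replicate 1, 2 or 3, in turn, 2, 3 and 4 list genes were called, of which 0, 1 and 2 were among the 4 called on all arrays. The difference of Trp53 stayed between 0.69 and 0.89, and that of Ccar2 between 0.25 and 0.33.

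**Figure D4:**
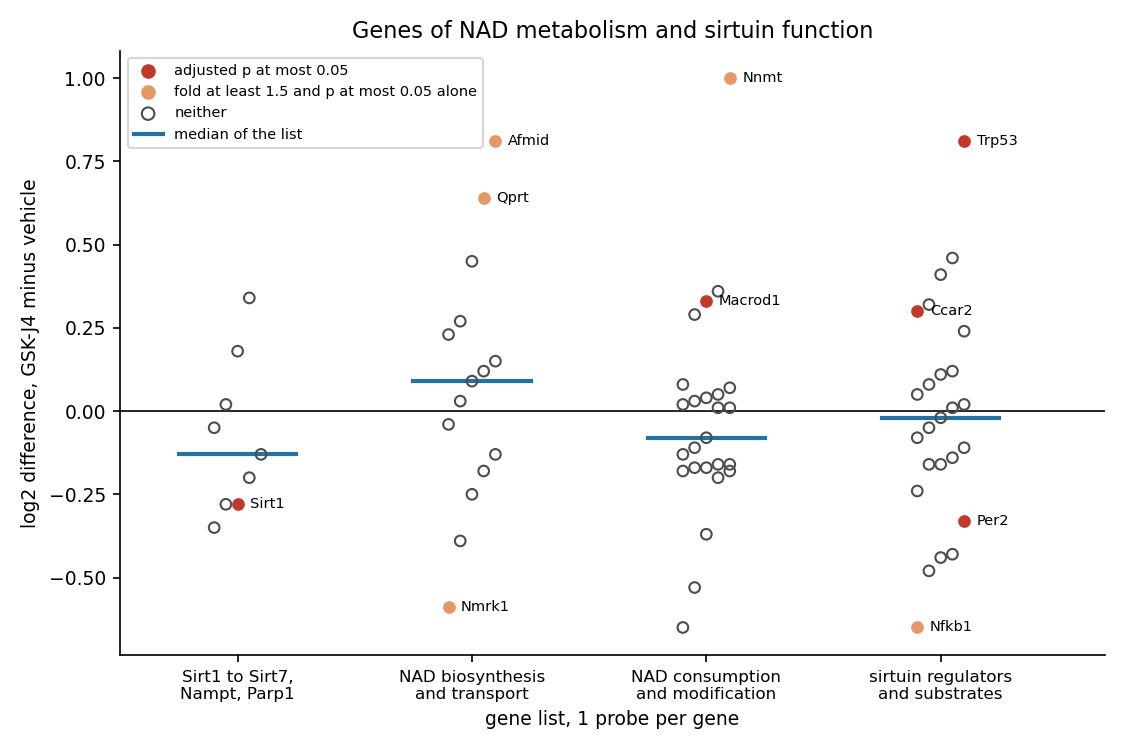
Difference in log2 signal for the 9 genes and the 3 lists of related genes, with 1 probe per gene; red points passed an adjusted p of 0.05, orange points passed fold and p alone, and blue lines are medians. The medians lie between −0.13 and 0.09, and 4 genes of the 3 lists passed the adjusted p, as did Sirt1 among the 9.

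Markers of the tissue and of its neighbours were measured alongside. Of 16 hypothalamus markers 11 were kept, with a median of 0.41. Among these, 10 had a positive difference, compared with 11992 of all 22117 genes. Limma called 2 of the 11 higher (9% of all genes), Npy (0.42) and Pomc (0.86). At fold and p 3 of the 11 were higher (4.84% of all genes), Pomc with Hcrt (0.81) and Kiss1, and these 2 are named after their values were seen. Kiss1 was well above background on 2 vehicle arrays and 3 GSK-J4 arrays. It was kept only through the group where it is higher, so its call carries no weight and no fold is given for it. After the GC correction 8 of the 11 were positive with a median of 0.26, and the differences were 0.19 for Npy and 0.59 for Pomc. Pmch, Avp, Trh, Nkx2-1 and Sim1 had no kept probe. The summed signal of the kept hypothalamus markers was 40000, 46300 and 42500 on the vehicle arrays and 46100, 46600 and 47200 on the GSK-J4 arrays. Of 7 pituitary markers 1 was kept, Lhb (0.18, not called). Of 10 markers of thalamus, striatum and cortex 7 were kept, with a median of 0.01, and Neurod6 was called lower (−0.47, and −0.3 after the GC correction). Their summed signal was 24000, 20000 and 19600 on the vehicle arrays and 19800, 17400 and 20000 on the GSK-J4 arrays. Vehicle means were 12.39 for Neurod6, 12.43 for Tbr1 and 4.88 for Adora2a. Among hypothalamus markers they were 15.24 for Sst, 11.52 for Npy, 7.94 for Pomc and 4.74 for Agrp. The share of neighbouring tissue in the samples was not tested. The 6 markers each of neurons, astrocytes, microglia, oligodendrocytes and endothelium with blood had medians between −0.03 and 0.16, with 0 called.

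Vehicle replicate 1 stood apart in the markers of the choroid plexus, the tissue that secretes cerebrospinal fluid into the ventricles. Their summed signal was 112000 on it, 3200 and 3380 on the other vehicle arrays, and 12400, 2930 and 5830 on the GSK-J4 arrays. Transthyretin (Ttr) read 16.15 on vehicle replicate 1 and between 10.42 and 13.24 on the other 5 arrays. All 7 of these markers were kept and had negative differences, with a median of −1.09 and 0 called. Vehicle replicate 1 sets this direction, since without it 6 of the 7 were positive, with a median of 0.42 (an alternative added after seeing the data). Without this array the differences were −0.28 for Sirt1 A_55_P2030428, 0.42 for the called Sirt4 probe, −0.30 for Nampt and −0.38 for Parp1, as large as with it, although the Sirt4 probe was then not called (adjusted p 0.09).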

How the data were processed

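For each of 6 arrays, 1 per sample, the authors deposited the spot intensity from Feature Extraction (10.7.1.1) with its flags, background-corrected per the file headers. The deposited log2 values, quantile normalized in GeneSpring according to the methods, have a median of 5.75 in each column. For the 20 probes, differences from these values and from the intensities deviated by at most 0.00057.

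The intensities were read in R 4.3.3 with data.table (version 1.17.8). Control spots and outlier flags were left out, spots of a probe were averaged on the log2 scale, and arrays were quantile normalized. Probes that the 3 arrays of either group all read well above background were kept and compared with lmFit and eBayes (limma 3.58.1, two-sided, no covariate), with Benjamini-Hochberg adjustment over all kept probes, or over genes where 1 probe per gene (the highest mean) was used. For the GC correction a lowess trend (span 30%) was removed within each array. The test was tested on simulated data. Probe positions are on mm9 and promoter windows on GRCm38.p6.

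The members and lists were chosen with earlier results of these data known. Every member probe is named. From each of the 3 pathway lists those past a threshold are named, at most 10 by smallest p, and up to 3 others in list order. Lists cover NAD biosynthesis and transport, NAD consumption and modification, sirtuin regulators and substrates, and markers of tissues and cell types. Alternatives were 75th percentile scaling, normexp (offset 50), the deposited table, other filters, the GC correction, the replicate number as a block, the methods' t-test, 1 probe per gene and leaving out each array. Slide was not fitted, since each group lies on 1 slide.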

Additional observations from a re-analysis of the deposited data

How the results depend on the processing

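On all 6 arrays 1 member probe was called higher and 0 lower, with 4 genes called in the 3 pathway lists (whose alternatives were added after seeing the data). The deposited table changed none of these counts. With 75th percentile scaling 2 member probes were higher (of Sirt2 and Sirt6, not the Sirt4 probe), 5036 of all probes were higher and 3635 lower, and 9 list genes were called. With normexp 3 member probes were higher and 2 lower, beside 3101 and 3170 of all probes, and at fold and p 523 of all probes were higher and 1097 lower. Without a filter 0 member probes and 1805 of all probes were higher, 1976 lower, and 1 list gene was called. With probes well above background on all 6 arrays, which kept 17 member probes, 2 were higher and 1 lower, beside 3362 and 2793 of all probes, and 7 list genes were called. With the GC correction 0 member probes were higher and 1 lower, 1490 of all probes were higher, 2115 lower, and 2 list genes were called, Ccar2 and Nadk (the latter named after its value was seen), of which 1 is among the 4. The methods' t-test after adjustment gave 0 member probes higher and 1 lower, with 1823 higher and 1474 lower among all probes. With 1 probe per gene 0 members were higher and 1 lower, 1990 genes were higher and 1719 lower, and at fold and p 1071 were higher and 1414 lower. Leaving out each array gave 0 to 1 member probes higher and 0 to 1 lower, 0 to 1 lower at fold and p, 1 to 2074 of all probes higher and 4 to 2483 lower, and 0 to 4 list genes. The cause of these shifts was not tested, beyond the smaller number of arrays or genes where that is the alternative itself.

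With the replicate number as a replicate block, with or without the GC correction, limma called 0 member probes, 0 of all probes higher, 0 lower and 0 list genes, while without that correction 11078 of all probes and 6 of the 20 had an unadjusted p under 0.05. The deviations of arrays with the same number correlated across probes at 0.01, 0.03 and 0.08, and those of arrays with different numbers at −0.10 to 0.09. With 3 arrays a group, these correlations cannot tell whether arrays of the same number shared any handling. The called Sirt4 probe and the 4 called list genes had the same sign under every alternative. Signal over background limits the dim probes, since 3 of the 20 were not well above background on every GSK-J4 array.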
